A study of Homo sapiens with 12 samples.

Results

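The 6 libraries described here held the SMARCA4 guide RNA and differed in the effector: 3 carried YTHDF2 (named CIRTS-3 in the labels) and 3 carried a nuclease (CIRTS-12). They were chosen by their titles and are 6 of the 12 libraries of the series. The other 6 have the same 2 effectors with a non-targeting (NT) guide. They are used here for side-by-side values, in an alternative fit of all 12 libraries and in a test of the difference between the guides. All are mRNA libraries of HEK-293T, an established line from human embryonic kidney that makes SV40 large T antigen. The 2 groups are called YTHDF2-SMARCA4 and nuclease-SMARCA4, and a difference is always YTHDF2-SMARCA4 over nuclease-SMARCA4. The series calls the 3 libraries of a group biological replicates, but no label says how the cultures or transfections were done, and p-values therefore cover the variation among these libraries, which may be technical. The series names no cells without an effector, and any batch that went with an effector cannot be told apart from it.

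CIRTS proteins are RNA-targeting effectors assembled from human protein parts and steered by a guide RNA. YTHDF2 is a cytoplasmic reader of N6-methyladenosine (m6A), the commonest internal mark of mRNA; it is known to bring the CCR4-NOT deadenylase to marked mRNAs and so to speed their decay. A nuclease effector cuts RNA instead. SMARCA4, the mRNA named by the guide, encodes BRG1, an ATPase of the BAF chromatin remodelling complexes. Because both groups held the same guide, the comparison asks how the transcriptome differs between the effectors and does not measure knockdown of the target.

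The libraries held 13883018, 14572824 and 12259533 estimated counts in nuclease-SMARCA4 replicates 1, 2 and 3, and 11744214, 14205603 and 18047859 in YTHDF2-SMARCA4. The first principal component of log2 CPM (counts scaled to a common depth) took 28.5% of the variance and separated the groups, with scores from -27.5 to -10 in nuclease-SMARCA4 and from 10.9 to 24.1 in YTHDF2-SMARCA4. Replicates differed beyond sampling noise in every pair. Of 18 renal, adrenal and neural genes listed for the HEK-293T lineage, 13 were measured, and PAX8 and DBH were among those at 0 in all 6 libraries. NEFM, a neurofilament subunit, stood at 201, 204 and 172 CPM with the nuclease and 217, 165 and 182 CPM with YTHDF2. Summed markers of blood cells stood between 3.10 and 5.93 CPM, and those of endothelium and liver stayed under 1.5 CPM in each library. Summed fibroblast markers separated the groups, at 748 to 785 CPM with the nuclease and 644 to 729.9 CPM with YTHDF2, as did epithelial markers, at 113 to 128 CPM and 106 to 109.99 CPM. THY1, FAP, KRT5 and KRT14 were at 0. On average 6 of the 10 fibroblast and 4 of the 8 epithelial markers were under 1 CPM, so each sum rested on the other members. Whether genes of these lists had a part in other results was not tested. No gene of these 5 lists was called by edgeR. At an unadjusted p below 0.05, 1 epithelial, 1 fibroblast and 0 blood markers passed, and DESeq2 called 1 fibroblast marker. Of all 15542 genes tested, 3592 passed at that unadjusted p.

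Between the effectors, 660 of 15542 genes tested passed the quasi-likelihood test of edgeR (Benjamini-Hochberg adjusted p under 0.05, hereafter called), which is 4.25% of the genes. With YTHDF2, 346 were higher (2.23%) and 314 were lower (2.02%). Most of the differences were small. The median fold among called genes was 1.28 in either direction, 95 passed 1.5-fold (67 higher and 28 lower), and 30 passed 2-fold (22 higher and 8 lower). In 657 of the 660 the 3 libraries of one group did not overlap the 3 of the other. Without overlap between the groups there were 2135 higher (13.7%) and 2136 lower (13.7%) genes in all.

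**Figure D1:**
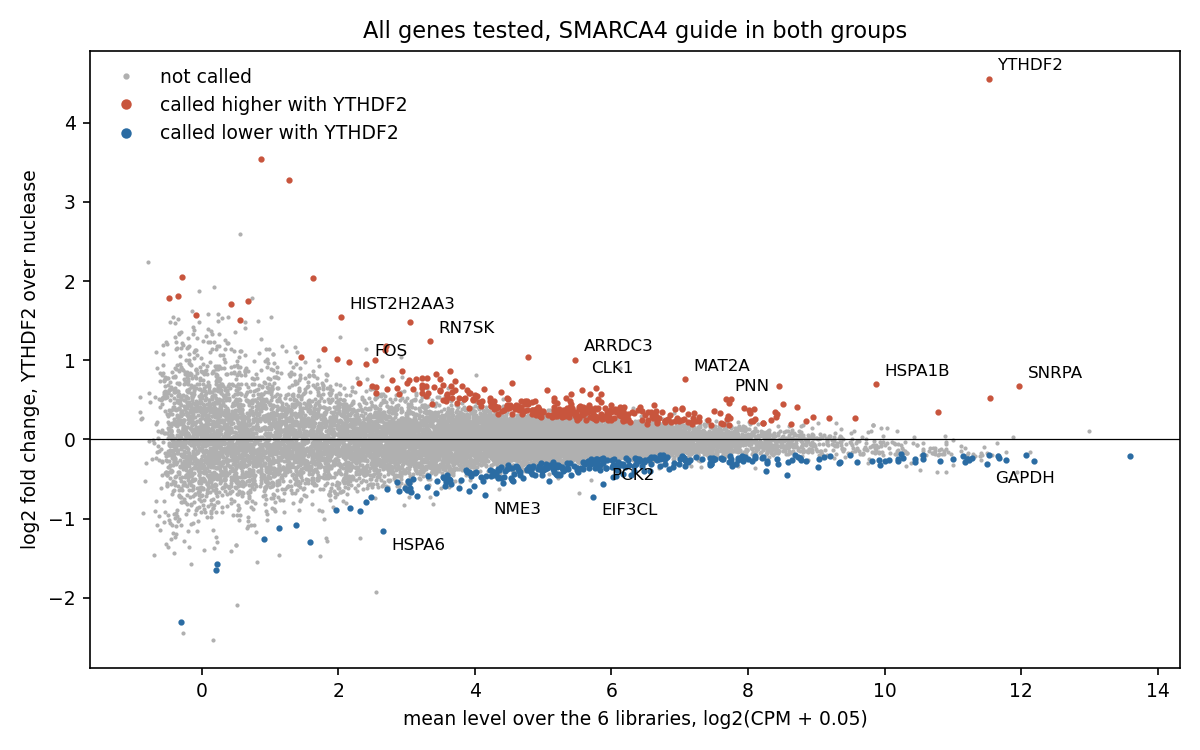
Log2 fold change of YTHDF2-SMARCA4 over nuclease-SMARCA4 (y axis) against the mean level over the 6 libraries on a log2 scale of CPM plus 0.05 (x axis), 1 point per gene tested, with called genes in colour. YTHDF2 stands apart at 4.55, while most of the 660 called genes lie within 1.5-fold of no change.

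How many genes were called depended strongly on single libraries. Without YTHDF2-SMARCA4 replicate 2 the count fell from 660 to 23, and without nuclease-SMARCA4 replicate 2 to 45. It was 234 and 192 without YTHDF2-SMARCA4 replicates 1 and 3, 376 without nuclease-SMARCA4 replicate 1, and 816 without nuclease-SMARCA4 replicate 3. All 660 kept their direction in each of these 6 fits. When all 12 libraries shared 1 estimate of the spread, YTHDF2 alone was called, and with counts scaled from TPM and length 5 genes were called.

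Called whichever single library was left out were 17 genes, 15 higher and 2 lower; every other call named here was lost in at least 1 of those 6 fits. The higher ones were YTHDF2, HIST2H2AA3, ARRDC3, MAT2A, HSPA1B, THAP9-AS1, CEP295, CLK1, NKTR, LUC7L3, PNN, DDX17, PRPF4B, SNHG1 and PRRC2C, and the lower ones EIF3CL and PCK2. All 17 were also called when trends with GC content and length were removed from each library. This set was drawn after the values were seen, from fits that share most of their libraries. DDX17, an RNA helicase, stood at 319, 285 and 323 CPM with the nuclease and 401, 439 and 423 CPM with YTHDF2, a log2 difference of 0.45 (SE 0.0589, adjusted p = 0.00346). PRPF4B, a kinase of pre-mRNA splicing factors, stood at 81.96, 80.6 and 88.7 CPM and at 109, 110.4 and 119.8 CPM (log2 0.44, adjusted p = 0.00445). PRRC2C, an RNA-binding protein of stress granules, stood at 236, 223 and 232 CPM and at 297, 284 and 291 CPM (log2 0.33, adjusted p = 0.00659).

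The effector gene itself separated the groups and checks their labels. YTHDF2 (ENSG00000198492.15, chr1:28736621-28769775, plus strand, GRCh38) stood at 216, 231 and 278 CPM in the 3 nuclease libraries and at 4839.9, 6181 and 6003 CPM in the 3 YTHDF2 libraries. The groups were far apart, with means of 242 ± 32.8 and 5675 ± 728 CPM (SD, n = 3 each). The difference was 23.5-fold, or 4.55 on the log2 scale (SE 0.109, 95% interval 4.32 to 4.79, adjusted p = 8.12e-12 by edgeR). Almost all of it sat on 1 transcript model, YTHDF2-205, a 657-base processed transcript of 3 exons at chr1:28737750-28742899. That model was listed at 0, 0 and 1.23 CPM with the nuclease and at 4565, 5883 and 5706 CPM with YTHDF2. It shares 577 of the 1737 coding bases of the full-length model YTHDF2-201, at coding positions 53 to 629. The full-length coding model YTHDF2-208 stood at 126, 141 and 155 CPM and 189, 220.3 and 229 CPM, and YTHDF2-209 at 78.2, 88.7 and 116 CPM and 80.9, 58.2 and 39.3 CPM. Reads of a construct and of the cell's own mRNA cannot be told apart where they share bases. The last 240 bases of the YTHDF2-205 model, coding positions 390 to 629, are shown because the counts that distinguish the effectors were assigned to this model; they lie in 1 exon at chr1:28742660-28742899 on the plus strand of GRCh38 and are 46.2% G and C.
YTHDF2-205: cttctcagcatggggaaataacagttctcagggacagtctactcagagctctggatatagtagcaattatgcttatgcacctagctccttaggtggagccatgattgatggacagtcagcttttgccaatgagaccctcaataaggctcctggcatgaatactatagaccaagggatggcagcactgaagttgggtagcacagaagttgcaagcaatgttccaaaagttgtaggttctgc

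SNRPA encodes the hairpin-binding A protein of the U1 snRNP, which engineered RNA effectors can carry in altered form; the labels do not list the parts of these ones. It stood at 2432, 2957 and 3924 CPM with the nuclease and 4400.1, 5378 and 5063 CPM with YTHDF2, without overlap. SNRPA rose 1.59-fold (log2 0.67, SE 0.125, adjusted p = 0.0177), but was not called without replicate 2 of either group. Most of its counts were on SNRPA-206, which holds the first 426 of 846 coding bases and stood at 1872, 2339.9 and 3139 CPM and 3502, 4254 and 4015 CPM. The full-length model SNRPA-201 stood at 125, 147 and 127 CPM and 124, 119 and 119 CPM, slightly lower with YTHDF2 without overlap. SNRPA-207, a processed transcript, stood at 218, 242 and 392 CPM and 528, 741 and 638 CPM. The coding model SNRPA-210 stood at 214, 227 and 261 CPM and 242, 263 and 290 CPM, with overlap. Differences of single models were not tested.

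The 2 luciferase reporters in the reference were also higher with YTHDF2. Renilla luciferase stood at 230.00, 249 and 335 CPM with the nuclease and 355, 483 and 453 CPM with YTHDF2 (log2 0.67, adjusted p = 0.0177). Firefly luciferase stood at 1819, 2486 and 3030.3 CPM and 3006, 3779 and 3729 CPM, with 1 nuclease library above the lowest YTHDF2 library (log2 0.52, adjusted p = 0.0457). In both groups, reporter and SNRPA levels were lowest in replicate 1. Whether the amount of delivered plasmid differed between the groups was not tested.

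Other genes listed as possible construct parts did not pass. HBEGF, a heparin-binding growth factor, stood at 3.88, 4.52 and 4.96 CPM and 5.68, 6.28 and 7.13 CPM (log2 0.53, adjusted p = 0.0867). YTHDF1, the paralogue that is known for promoting translation, stood at 59.3, 62.9 and 68.5 CPM and 69.9, 79.2 and 74.3 CPM (log2 0.23, adjusted p = 0.0706). SMG6, the endonuclease of nonsense-mediated decay, stood at 36.00, 41.00 and 38.1 CPM and 38.8, 47.7 and 37.5 CPM (log2 0.11, adjusted p = 0.531). DEFB103A and DEFB103B, 2 copies of a cationic defensin gene, were at 0 in all 6 libraries.

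The guide's target was not called between the effectors. SMARCA4 (chr19:10960825-11079426, plus strand) stood at 239.7, 251 and 220.3 CPM with the nuclease and 244, 211 and 222 CPM with YTHDF2, and the groups overlapped. The log2 difference was -0.072 (SE 0.0636, 95% interval -0.21 to 0.064, adjusted p = 0.535). The exact two-sided permutation test gave p = 0.5, where the smallest p for 3 against 3 is 0.1. SMARCA2, the alternative BAF ATPase, stood at 27.4, 23.5 and 27.6 CPM and 31.3, 31.9 and 24.8 CPM (log2 0.16, adjusted p = 0.394). Of 26 measured BAF subunits edgeR, DESeq2 and limma-voom each called 0. At an unadjusted p below 0.05 there were 4 of them, beside 3592 of all 15542 genes tested. The median of the 26 subunits was 0.043 beside -0.00033 for all genes.

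**Figure D2:**
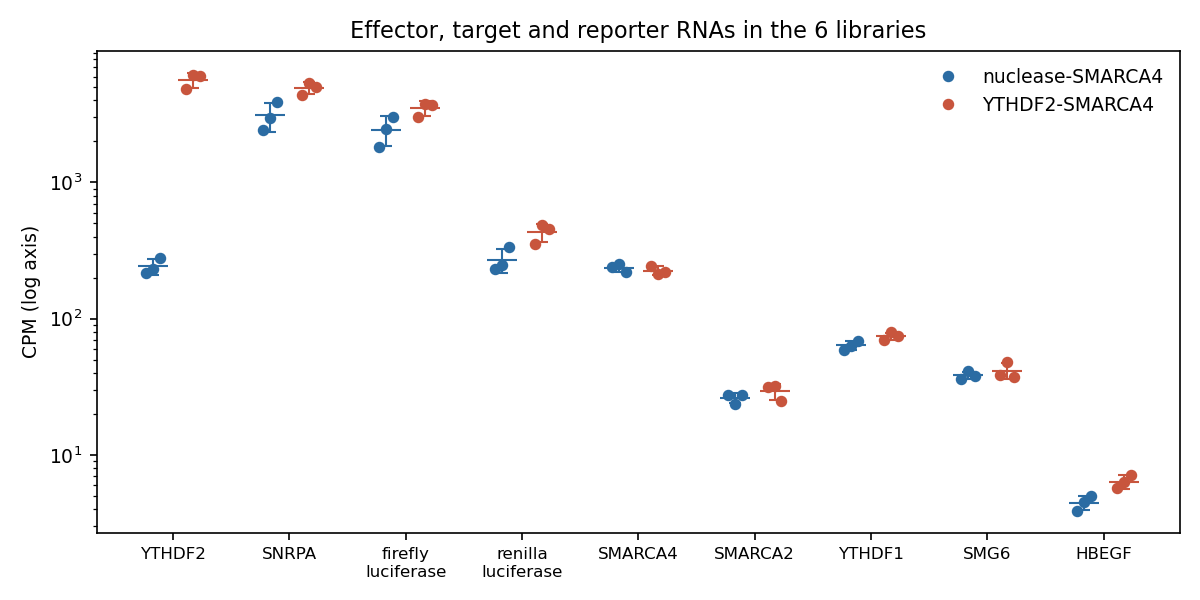
CPM on a log axis of the effector gene, possible construct parts, luciferase reporters and the BAF ATPases in the 6 libraries, with mean and SD over 3 libraries per group. YTHDF2 lies 23.5-fold higher in YTHDF2-SMARCA4, SNRPA and both reporters lie higher by less than 2-fold, and SMARCA4 overlaps between the groups.

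Of 12 measured m6A readers edgeR and limma-voom called YTHDF2 alone and DESeq2 called 2. At an unadjusted p below 0.05 there were 5 of them, beside 3592 of all 15542 genes tested. YTHDC1, the nuclear YTH reader, stood at 87.3, 92.2 and 90.9 CPM and 99.3, 107 and 103 CPM, without overlap (log2 0.19, adjusted p = 0.0582). Of 13 measured writers and erasers edgeR called 0, with 5 at an unadjusted p below 0.05, 2 called by DESeq2 and 0 by limma-voom. The smallest p values among them belonged to the writer complex members ZC3H13 (log2 0.17, adjusted p = 0.0593) and WTAP (log2 0.21, adjusted p = 0.0668) and to the associated E3 ligase CBLL1 (log2 0.25, adjusted p = 0.0775).

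Among 37 measured deadenylation, decapping and decay factors 3 rose and 0 fell, where 2.23% of all genes rose and 2.02% fell, with a median of 0.041. PATL1, which links deadenylation to decapping, stood at 50.9, 46.3 and 46.8 CPM with the nuclease and 63.8, 61.9 and 62.5 CPM with YTHDF2. It rose 1.31-fold (log2 0.39, SE 0.0634, adjusted p = 0.0112). DIS3, the catalytic subunit of the nuclear exosome, rose by a log2 of 0.20 (adjusted p = 0.0447), and CNOT4, a ubiquitin ligase bound to CCR4-NOT, by 0.27 (adjusted p = 0.0476). CNOT1, the scaffold of the deadenylase that YTHDF2 binds, stood at 295, 251 and 245 CPM and 273, 249.9 and 248 CPM (log2 -0.04, adjusted p = 0.774). PATL1 was the member still called after removal of the GC and length trends.

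Of 11 measured mRNAs from a short list of reported YTHDF2 targets, 2 rose and 0 fell, beside 2.23% and 2.02% of all genes. CREBBP, a histone acetyltransferase, stood at 43.3, 38.9 and 41.02 CPM with the nuclease and 51.5, 50.8 and 49.5 CPM with YTHDF2 (log2 0.30, SE 0.0673, adjusted p = 0.0283). SON, a splicing speckle scaffold, stood at 251, 235 and 242 CPM and 302, 278 and 276 CPM (log2 0.23, adjusted p = 0.0306). MYC was -0.13 (adjusted p = 0.344), and the list's median was 0.12, or 0.025 with the trends removed and 0.03 without YTHDF2-SMARCA4 replicate 1. GGAC followed by A, C or T, a form of the m6A motif, was counted per kb of transcript. Over all genes, split into 10 bins by this density, the median difference ran from 0.058 in the lowest bin to -0.12 in the highest. Genes called higher held a median of 2.53 such motifs per kb and genes called lower 4.41, beside 3.24 for all. Genes of middling GC content were also split on their own into 3 sets of 1016 to 1018 genes by density. From the set of lowest to that of highest density the median differences were -0.00054, 0.019 and 0.0025, with 17, 18 and 17 genes called higher and 9, 9 and 8 called lower. Within that range of GC content, 46.2% to 51.6%, the 3 medians did not follow the order of motif density.

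Factors of nonsense-mediated decay (NMD), the pathway that clears mRNAs with early stop codons, gave 2 calls of 15, beside 4.25% of all genes. UPF3B rose by 0.27 (adjusted p = 0.0383) and UPF2 by 0.25 (adjusted p = 0.0475); both were lost with the trends removed. Among 16 measured snoRNA host genes, whose spliced transcripts are cleared by NMD, 4 rose and 0 fell, beside 2.23% and 2.02% of all genes. SNHG1 stood at 109, 118 and 113 CPM with the nuclease and 143, 149.98 and 154 CPM with YTHDF2, without overlap (log2 0.40, SE 0.0539, adjusted p = 0.00372). SNHG12 rose by 0.52, SNHG15 by 0.41 and GAS5 by 0.23 (adjusted p = 0.0156, 0.0441 and 0.0417). The other 12 lay on both sides of 0, and the list's median was 0.007.

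Splicing regulators of the SR family and the CLK kinases that phosphorylate them were the list with the most increases. SR proteins bind exonic enhancers and recruit the spliceosome, and many of their own genes hold poison exons or retained introns through which they regulate themselves. Of 20 measured members 13 rose and 0 fell, where 2.23% of all genes tested rose. Their median was 0.27 beside -0.00033 for all genes, and 17 of the 20 were higher without overlap, where 13.7% of all genes were.

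CLK1 is a kinase of SR proteins whose own transcript is known for intron retention. It stood at 39.6, 34.6 and 38.2 CPM with the nuclease and 58.1, 57.9 and 57.2 CPM with YTHDF2, with the lowest YTHDF2 library above the highest nuclease library. CLK1 rose 1.54-fold (log2 0.62, SE 0.0689, adjusted p = 7.32e-04). Its paralogue CLK4 stood at 12.6, 11.5 and 11.6 CPM and 18.2, 18.97 and 16.8 CPM (log2 0.59, adjusted p = 0.0128). The other 2 kinases of the family were not called. CLK2 stood at 73.2, 75.7 and 66.2 CPM and 73.8, 71.7 and 70.4 CPM (log2 0.0031, SE 0.0633), and CLK3 at 55.98, 56.2 and 55.1 CPM and 55.9, 52.5 and 53.5 CPM (log2 -0.049, SE 0.0607). A test of the difference between these paralogues was not run.

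PNN, a splicing-associated protein of nuclear speckles, stood at 177, 158 and 171 CPM with the nuclease and 230.4, 241 and 249 CPM with YTHDF2 (log2 0.51, SE 0.0552, adjusted p = 6.57e-04). LUC7L3, a U1-associated splicing factor, stood at 169, 170.1 and 191 CPM and 228, 264 and 263 CPM (log2 0.51, SE 0.0669, adjusted p = 0.00325). In both, all YTHDF2 libraries were above all nuclease libraries. Among the SR proteins proper, SRSF6 stood at 158, 170.5 and 206 CPM and 225, 266 and 246 CPM (log2 0.47, adjusted p = 0.0159), and SRSF7 at 287, 289 and 316 CPM and 325, 367 and 360.4 CPM (log2 0.24, adjusted p = 0.0399). SRRM2, the large speckle protein, stood at 229, 196 and 209 CPM and 295, 272 and 267 CPM (log2 0.40, adjusted p = 0.00938). SRSF1 (log2 0.21, adjusted p = 0.0608) and SRSF3 (log2 0.21, adjusted p = 0.0693) missed the threshold without overlap, and TRA2B overlapped (log2 0.11). With the GC and length trends removed, 9 of the 20 were called and the median was 0.19. Leaving out 1 library gave 11, 3 and 7 calls without YTHDF2-SMARCA4 replicates 1, 2 and 3, and 8, 4 and 14 without nuclease-SMARCA4 replicates 1, 2 and 3.

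The estimated counts of these 20 genes were split by the annotated class of transcript model. Models annotated as protein-coding summed to 3325, 3258 and 3562 CPM with the nuclease and 3861, 4131 and 3993 CPM with YTHDF2, a ratio of 1.18. Models annotated as NMD substrates summed to 217, 227 and 267 CPM and 298, 352 and 324 CPM, a ratio of 1.37. Models with a retained intron summed to 333, 354 and 386 CPM and 443, 457 and 473 CPM, a ratio of 1.28. All 3 classes were higher in each YTHDF2 library than in any nuclease library. Over all genes the NMD class had a ratio of 1.01 and the retained-intron class 0.989. In SRSF7 the split was unequal: its coding models went from 248, 241 and 274 CPM to 261, 269 and 277 CPM, and its NMD models from 36.5, 47.3 and 40.6 CPM to 61.7, 94.4 and 77.5 CPM. These splits were not tested, and the assignment of reads among models of 1 gene adds error; for CLK1 the coding models alone ran from 7.37 to 25.8 CPM among nuclease libraries.

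Heat shock chaperones, which refold damaged proteins, gave 6 increases and 1 decrease among 20 measured members (median 0.13, or 0.079 with the trends removed). Over all genes 2.23% rose and 2.02% fell. HSPA1B, the inducible HSP70 (chr6:31827735-31830255), stood at 749.8, 617 and 781 CPM with the nuclease and 1136, 1186 and 1168 CPM with YTHDF2. The 3 YTHDF2 libraries lay close together, above all nuclease libraries. HSPA1B rose 1.63-fold (log2 0.70, SE 0.073, adjusted p = 6.49e-04). Its near-identical copy HSPA1A was listed at 0, 0.778 and 2.12 CPM and 1.504, 1.95 and 1.94 CPM, so the split between the copies is uncertain, and their sum gave a log2 ratio of 0.70.

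The constitutive HSC70 gene, HSPA8, stood at 1573, 1399 and 1674 CPM and 1797, 2100.1 and 1994 CPM (log2 0.34, SE 0.07, adjusted p = 0.0221). Its co-chaperones of the J-domain family rose with it, DNAJB1 by 0.36 (adjusted p = 0.0191) and DNAJA1 by 0.35 (adjusted p = 0.0212). The nucleotide exchange factor HSPH1 rose by 0.26 and CHORDC1, an HSP90 co-chaperone, by 0.36 (adjusted p = 0.0305 and 0.0418). HSP90AA1 stood at 3745, 3736 and 3782 CPM and 3664, 3845 and 3969 CPM and did not separate the groups (log2 0.027).

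HSPA6, the strictly stress-inducible HSP70, went the other way. It stood at 6.73, 7.99 and 11.3 CPM with the nuclease and 2.84, 5.37 and 3.37 CPM with YTHDF2, without overlap, and fell by 1.16 on the log2 scale (SE 0.238, adjusted p = 0.0224). In the 6 libraries with the NT guide HSPA1B and HSPA6 differed by 0.72 and -1.69, in the same directions, though neither was called there. Chaperone calls varied with the libraries: 4, 1 and 1 members were called higher without YTHDF2-SMARCA4 replicates 1, 2 and 3, and 2, 1 and 8 without nuclease-SMARCA4 replicates 1, 2 and 3.

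The promoters of 3 of these genes are shown because the genes encode HSP70 proteins of 1 family and their RNA levels moved in opposite directions. Each line holds the 150 bases before the annotated start in the gene's own direction, from RefSeq on GRCh38.p14. Capitals mark a heat shock element of 2 units, GAANNTTC or TTCNNGAA, the unit pair bound by heat shock factors. HSPA1B lies at chr6:31827588-31827737 (plus), HSPA8 at chr11:123062137-123062286 (minus) and HSPA6 at chr1:161524390-161524539 (plus).
HSPA1B: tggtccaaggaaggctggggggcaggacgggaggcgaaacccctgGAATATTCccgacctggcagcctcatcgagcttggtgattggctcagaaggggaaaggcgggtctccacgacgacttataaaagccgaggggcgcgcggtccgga
HSPA8: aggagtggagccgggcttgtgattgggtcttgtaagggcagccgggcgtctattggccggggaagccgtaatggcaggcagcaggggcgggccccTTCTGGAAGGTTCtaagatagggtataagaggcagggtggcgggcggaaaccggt
HSPA6: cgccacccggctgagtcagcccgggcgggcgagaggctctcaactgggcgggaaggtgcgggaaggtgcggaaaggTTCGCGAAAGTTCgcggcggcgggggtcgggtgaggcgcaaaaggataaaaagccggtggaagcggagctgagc

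HSPA8 and HSPA6 each held 2 overlapping matches, and HSPA1B held 1. In windows from 250 bases before to 50 after the start, 13.49% of 35116 promoters held such a pair on either strand. Of the called chaperones 5 of the 6 higher genes and the 1 lower gene held it, as did 8 of 12 members not called. A run of 3 alternating units was in 0.49% of promoters, in 3 of the 6 higher genes, in HSPA6 and in 3 of the 12 not called. The element was present in members that rose, that fell and that were not called.

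Of 20 unfolded protein response genes 2 rose, where 2.23% of all genes did, the endoplasmic reticulum chaperone HSPA5 at 657, 665 and 740.4 CPM against 892, 788 and 803 CPM (log2 0.27, adjusted p = 0.0324) and its partner DNAJC3 (log2 0.26, adjusted p = 0.0441). Both missed the threshold with the trends removed. Of 32 genes of the ATF4-driven integrated stress response 1 rose and 2 fell, beside 4.25% of all genes called either way. PPP1R15A, the stress-induced phosphatase subunit of eIF2, stood at 38.1, 43.5 and 45.7 CPM and 60.3, 55.4 and 51.9 CPM (log2 0.40, adjusted p = 0.0224). The serine synthesis enzyme PHGDH was -0.24 and the alanyl-tRNA synthetase AARS -0.21 (adjusted p = 0.0324 and 0.0402). Of 22 measured interferon and RNA-sensing genes edgeR, DESeq2 and limma-voom each called 0. At an unadjusted p below 0.05 there were 3 of them, beside 3592 of all 15542 genes tested.

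Immediate early genes, which are transcribed within minutes of growth factor or stress signals, had a median of 0.21 (0.13 without YTHDF2-SMARCA4 replicate 1). Of the 25 measured, 19 were positive, beside 7758 of all 15542 genes tested. Called were 2, both higher, where 2.23% of all genes were called higher. FOS stood at 3.95, 3.75 and 2.93 CPM with the nuclease and 9.02, 6.56 and 5.36 CPM with YTHDF2, without overlap (log2 0.95, SE 0.215, adjusted p = 0.0287). EGR1 stood at 11.7, 11.8 and 12.9 CPM and 22.7, 18.1 and 14.2 CPM, also without overlap (log2 0.58, SE 0.148, adjusted p = 0.0436). For both, YTHDF2-SMARCA4 replicate 1 was the highest of its group. FOS missed the threshold without replicate 1 or 2 of YTHDF2-SMARCA4 and without replicate 2 or 3 of nuclease-SMARCA4. EGR1 missed it in 5 of the 6 fits that left out a library and with limma-voom.

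The EGR1 promoter, 150 bases before the start at chr5:138465329-138465478 on the plus strand (RefSeq, GRCh38.p14), is shown because it held matches to a serum response site. Capitals mark 2 matches to the CArG box, the site of serum response factor, a pattern found in 1.29% of the 35116 promoters on either strand and in 2 of 16 uncalled members of the list. FOS, the other gene called, held no match in this window.
EGR1: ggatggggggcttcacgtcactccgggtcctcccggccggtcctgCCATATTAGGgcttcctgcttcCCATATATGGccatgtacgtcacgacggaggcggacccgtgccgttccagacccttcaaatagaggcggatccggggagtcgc

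Among related signalling lists, 0 of 10 MAPK feedback genes were called by edgeR, DESeq2 or limma-voom (median 0.18, or 0.11 without YTHDF2-SMARCA4 replicate 2). At an unadjusted p below 0.05 there were 2 of them, beside 3592 of all 15542 genes tested. Of 10 YAP targets 1 rose, beside 2.23% of all genes. That gene, CYR61, encodes a matricellular protein and stood at 8.71, 8.77 and 9.11 CPM and 13.6, 12.5 and 14.3 CPM (log2 0.60, adjusted p = 0.0177). ANKRD1, another target, was 1.58 from low counts (adjusted p = 0.0786). Of 16 WNT and TGF-beta feedback genes 1 rose, the SMAD corepressor SKIL (log2 0.39, adjusted p = 0.0231), again beside 2.23% of all genes. Of 25 p53 targets 4 rose and 0 fell, where 2.23% of all genes rose and 2.02% fell, with a median of 0.0084. They were the phosphatase PPM1D (0.31), the death receptor FAS (0.51), the metabolic enzyme TIGAR (0.29) and GADD45B (0.52), with adjusted p from 0.0378 to 0.0436. The T antigen of these cells binds p53. With the NT guide the p53 list had a median of -0.30, and 1 of the 4 calls remained when the trends were removed.

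ARRDC3, an alpha-arrestin that directs membrane receptors to degradation, stood at 31.7, 26.1 and 30.8 CPM with the nuclease and 51.7, 67.4 and 58.3 CPM with YTHDF2. The lowest YTHDF2 library was above the highest nuclease library, and ARRDC3 rose 2.01-fold (log2 1.01, SE 0.0998, adjusted p = 4.80e-04). Its paralogue ARRDC4 fell. ARRDC4 stood at 61.6, 79.5 and 63.6 CPM and 52.97, 52.1 and 53.9 CPM (log2 -0.37, SE 0.086, adjusted p = 0.0338), and TXNIP, the glucose-induced relative of both, at 68.3, 107 and 88.5 CPM and 63.3, 83.8 and 80.7 CPM (log2 -0.21, adjusted p = 0.368).

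MAT2A makes S-adenosylmethionine (SAM), the methyl donor of m6A, and its mRNA is known to be regulated by SAM through intron retention and m6A in its 3′ end. It stood at 93.01, 96.3 and 109.9 CPM with the nuclease and 154, 186 and 168 CPM with YTHDF2. MAT2A rose 1.699-fold (log2 0.76, SE 0.0759, adjusted p = 4.80e-04). In the 6 libraries with the NT guide it was -0.053, and the difference between the guides was not called. Its coding models went from 92.1, 94.7 and 108 CPM to 152, 184 and 166 CPM, and its retained-intron models held 0.912, 1.31 and 1.63 CPM and 1.14, 2.401 and 1.15 CPM, too few to show a split. METTL16, the methyltransferase that acts on it, was 0.083 (adjusted p = 0.461).

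In the rest of the methionine cycle MTRR, which reactivates methionine synthase, rose by 0.30 (adjusted p = 0.0438). AHCY, which removes the product of methylation, stood at 431, 463 and 414 CPM and 361, 354 and 374 CPM (log2 -0.26, adjusted p = 0.0221). In all, 2 of 12 rose and 1 fell, beside 2.23% and 2.02% of all genes. Of 17 NRF2 and oxidative stress genes 1 rose and 2 fell, beside the same shares of all genes. Heme oxygenase HMOX1 stood at 32.9, 36.4 and 38.1 CPM and 49.3, 47.6 and 49.2 CPM (log2 0.44, SE 0.0727, adjusted p = 0.0112), while the pentose phosphate enzyme TKT was -0.26 (adjusted p = 0.0225).

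Glycolysis and hypoxia genes had a median of -0.16, with 25 of 32 negative, beside 7784 of all 15542 genes tested. Among them 1 was called higher and 3 lower, beside 2.23% and 2.02% of all genes. GAPDH stood at 3324, 3384 and 2863 CPM with the nuclease and 2749, 2461 and 2522 CPM with YTHDF2, without overlap (log2 -0.31, SE 0.0652, adjusted p = 0.0231). TPI1 was -0.26 and PFKL -0.31 (adjusted p = 0.0291 and 0.0453), and the peptide hormone ADM rose by 0.63 (adjusted p = 0.0222). Over the libraries this list did not follow the effector: its mean deviation was 0.31, 0.012 and -0.21 in nuclease-SMARCA4 and 0.22, -0.18 and -0.16 in YTHDF2-SMARCA4, highest in replicate 1 of each. Without nuclease-SMARCA4 replicate 1 the median was 0.019 with 0 called lower. It was -0.25 and -0.098 without YTHDF2-SMARCA4 replicates 1 and 2, and -0.24 with 9 called lower without nuclease-SMARCA4 replicate 3. The mitochondrial enzymes PCK2 and IDH2 fell. PCK2 stood at 64.9, 78.4 and 67.1 CPM and 48.3, 45.8 and 48.2 CPM (log2 -0.57, SE 0.0755, adjusted p = 0.00346), and IDH2 at 92.1, 96.7 and 86.7 CPM and 72.1, 71.01 and 65.6 CPM (log2 -0.40, adjusted p = 0.00887). Of 29 sterol and fatty acid genes 1 rose, SC5D (log2 0.34, adjusted p = 0.0224), beside 2.23% of all genes. Of 5 measured metallothionein and zinc genes edgeR, DESeq2 and limma-voom each called 0. At an unadjusted p below 0.05 there were 2 of these 5, beside 3592 of all 15542 genes tested. Of 25 lysosome genes 2 fell, HEXA (-0.22, adjusted p = 0.0338) and CTSB (-0.26, adjusted p = 0.0406), beside 2.02% of all genes.

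Of the cytosolic ribosomal protein genes 27 of 74 fell with YTHDF2, where 2.02% of all genes fell. All 74 measured members had negative differences, between -0.32 and -0.091, with a median of -0.19, and 67 were lower without overlap, where 13.7% of all genes were. RPS15 stood at 1043, 1198 and 1008 CPM with the nuclease and 839, 879 and 883 CPM with YTHDF2 (log2 -0.32, SE 0.0628, adjusted p = 0.0202). RPS2 stood at 4899, 5556 and 4815 CPM and 4209.7, 4172 and 4288 CPM (log2 -0.27, adjusted p = 0.0224). In both, nuclease-SMARCA4 replicate 2 was the highest library.

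The ribosomal protein list lay at 0.077, 0.20 and 0.025 in nuclease-SMARCA4 replicates 1, 2 and 3 and at -0.15, -0.11 and -0.04 in YTHDF2-SMARCA4, as mean log2 deviations from the average of the 6. With the NT guide its median had the other sign, 0.29, with 74 of 74 positive. With the trends removed it was -0.12, and 27 were called. No member was called without YTHDF2-SMARCA4 replicate 1, without YTHDF2-SMARCA4 replicate 2 or without nuclease-SMARCA4 replicate 2; 3 were called without YTHDF2-SMARCA4 replicate 3, 9 without nuclease-SMARCA4 replicate 1 and 43 without nuclease-SMARCA4 replicate 3. DESeq2 called 66. These transcripts are short, with a median of 612 bases against 2088 for all genes.

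Of 25 translation factors 3 fell and 1 rose, beside 2.02% and 2.23% of all genes. The elongation factor EEF1A1 stood at 13702, 13491 and 12689.9 CPM and 11643, 11259.7 and 11639.6 CPM (log2 -0.21, adjusted p = 0.0243), EEF1G was -0.26 and EEF1D -0.21 (adjusted p = 0.0212 and 0.0464), while the initiation factor EIF5 rose by 0.28 (adjusted p = 0.045). Of 20 ribosome biogenesis genes 16 were positive, beside 7758 of all 15542 genes tested. Their median was 0.10 (0.065 without YTHDF2-SMARCA4 replicate 2). Of these 20, 1 was called, a rise, where 2.23% of all genes rose. It was NOP58, a core protein of box C/D snoRNPs, at 163, 165 and 183 CPM and 204, 219 and 218 CPM (log2 0.33, SE 0.0569, adjusted p = 0.0128).

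All 37 nuclear-encoded respiratory chain genes were negative (median -0.16), and 5 fell, where 2.02% of all genes did. With the NT guide the median had the other sign, 0.18, with 33 of 37 positive. NDUFV1 of complex I stood at 146, 166 and 141 CPM with the nuclease and 125, 112 and 122 CPM with YTHDF2 (log2 -0.33, adjusted p = 0.0212). NDUFA13 of the same complex was -0.31, UQCRC1 and CYC1 of complex III were -0.28 and -0.31, and ATP5B of the ATP synthase was -0.18, with adjusted p from 0.0212 to 0.0475. The 13 mRNAs of the mitochondrial genome had a lower median, -0.34, and all were negative, yet edgeR called 0 of them. At an unadjusted p below 0.05 there were 9, beside 3592 of all 15542 genes tested, and DESeq2 and limma-voom called 0 of the 13. MT-CO1, the largest subunit of complex IV, stood at 4752, 5297 and 3331 CPM with the nuclease and 2946, 3367 and 3782 CPM with YTHDF2, and nuclease-SMARCA4 replicate 3 lay within the YTHDF2 range. Without that library 7 of the 13 were called lower and the median was -0.46. It was -0.19 without nuclease-SMARCA4 replicate 2 and -0.21 without YTHDF2-SMARCA4 replicate 1, each with 0 calls.

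**Figure D3:**
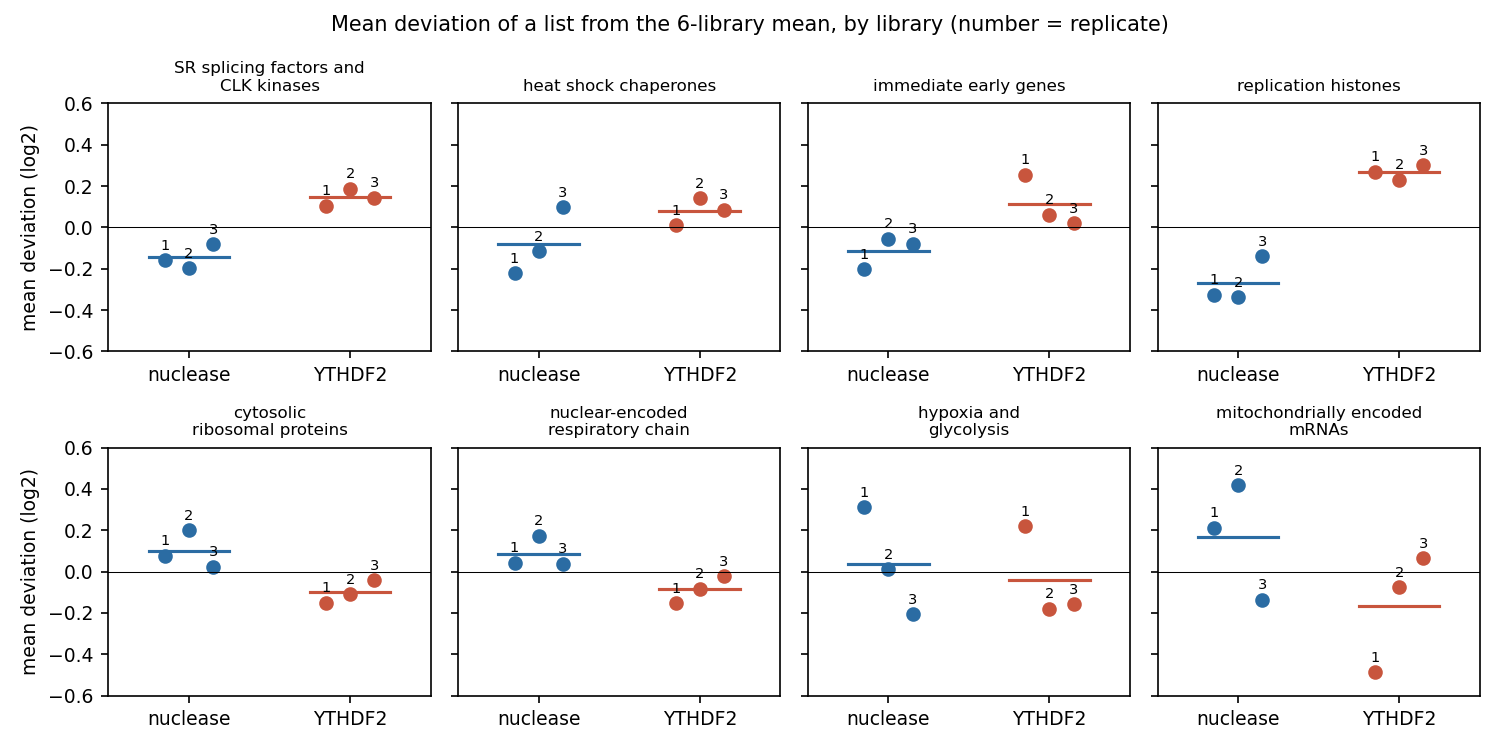
Mean deviation of 8 gene lists from the average of the 6 libraries (log2, y axis) in each library, numbered by replicate, with a bar at each group mean. The SR and CLK list and the histones lie above 0 in all YTHDF2 libraries and below 0 in all nuclease libraries, ribosomal proteins and the respiratory chain the reverse, and heat shock, glycolysis and mitochondrial mRNAs overlap between the groups.

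Replication histone genes, whose mRNAs normally end in a stem-loop without a poly(A) tail and so are poorly caught in mRNA libraries, had a median of 0.48. Of 13 measured 5 rose, where 2.23% of all genes did. HIST1H2AC stood at 8.12, 8.27 and 10.2 CPM with the nuclease and 12.4, 18.8 and 16.7 CPM with YTHDF2 (log2 0.86, SE 0.153, adjusted p = 0.0141). HIST1H1C, a linker histone, stood at 14.8, 13.3 and 18.4 CPM and 22.7, 21.4 and 20.8 CPM (log2 0.48, adjusted p = 0.0342), and HIST1H2BD at 3.95, 4.88 and 4.64 CPM and 7.18, 6.63 and 7.41 CPM (log2 0.66, adjusted p = 0.037). All 3 were without overlap between the groups.

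The other 2 histone calls belong to near-identical pairs and are uncertain. HIST2H2AA3 stood at 2.41, 1.77 and 2.03 CPM and 6.600, 5.65 and 5.92 CPM (log2 1.54, adjusted p = 0.00346), its copy HIST2H2AA4 had a log2 ratio of -0.57, and the pair summed gave 0.24. HIST2H4A stood at 15.6, 10.8 and 27.5 CPM and 45.3, 38.9 and 26.9 CPM, with overlap (log2 1.04, adjusted p = 0.0342), and summed with HIST2H4B gave 0.49. The histone list kept 5 calls with the trends removed. It gave 2, 1 and 3 calls without YTHDF2-SMARCA4 replicates 1, 2 and 3, and 2, 1 and 5 without nuclease-SMARCA4 replicates 1, 2 and 3. With the NT guide its median was -0.31.

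Of 24 G2/M genes 2 rose, MKI67 and CENPF, where 2.23% of all genes rose and 2.02% fell. MKI67 stood at 80.9, 64.04 and 73.98 CPM against 105, 94.8 and 92.2 CPM (log2 0.41, adjusted p = 0.0191). CENPF rose by 0.32 (adjusted p = 0.0177), and the list's median was -0.014. Of 22 G1/S genes 1 fell, beside 2.02% of all genes. It was the licensing factor CDT1 (log2 -0.27, adjusted p = 0.037), which has a GC content of 65.8% and was -0.078 with the trends removed. Of 11 paraspeckle and nuclear noncoding RNA genes 3 rose, beside 2.23% of all genes. They were the scaffold RNA NEAT1 at 37.1, 37.5 and 33.2 CPM against 48.5, 39.7 and 50.2 CPM (log2 0.36, adjusted p = 0.0433) and the protein genes PSPC1 (0.31, adjusted p = 0.0257) and SFPQ (0.27, adjusted p = 0.0392). With the trends removed, 1 member of that list was called higher and 2 lower. Of the 15 measured U1 and spliceosome core proteins SNRPA alone was called, beside 4.25% of all genes called either way. Among lineage genes the transcription factor GATA2 rose (0.48, adjusted p = 0.0212) and the neuronal tubulin TUBB3 fell (log2 -0.48, adjusted p = 0.0243).

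**Figure D4:**
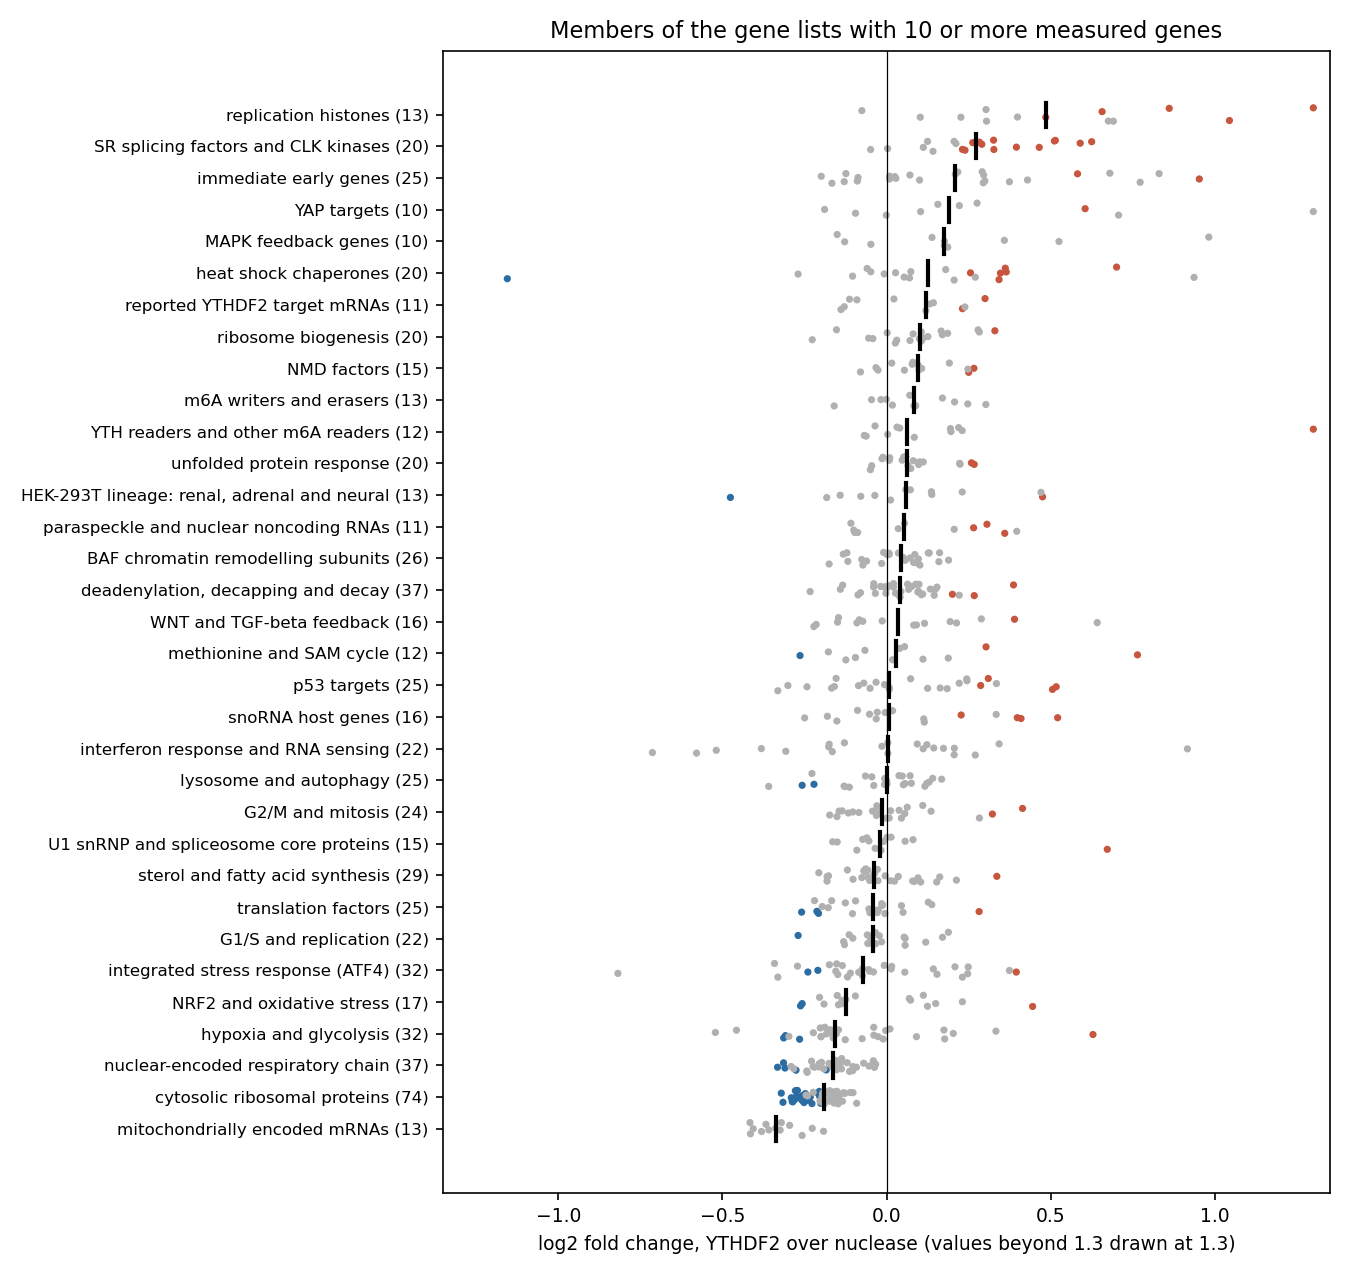
Log2 fold change (x axis) of each measured member of the gene lists with 10 or more measured genes, in red where called higher and blue where called lower, with a bar at the list's median and the number measured in brackets. SR factors with CLK kinases hold 13 red points and ribosomal proteins 27 blue ones; the 13 mitochondrial mRNAs hold no coloured point.

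Beside YTHDF2, several of the larger differences among called genes at or above 1 CPM in the higher group were in low-count or duplicated genes. AC112191.2, annotated as a processed pseudogene, stood at 0, 0.636 and 0.163 CPM with the nuclease and 3.51, 3.84 and 2.54 CPM with YTHDF2 (log2 3.54, adjusted p = 0.00996). The small nuclear RNA gene RN7SK, a regulator of transcription elongation that lacks a poly(A) tail, stood at 7.17, 6.29 and 4.72 CPM and 12.5, 9.35 and 20.6 CPM (log2 1.24, SE 0.247, adjusted p = 0.0212). SMG1P1, a partial copy of the NMD kinase gene SMG1, stood at 0.22, 0.99 and 2.44 CPM and 2.92, 7.67 and 4.04 CPM, while SMG1 itself missed the threshold (log2 0.25, adjusted p = 0.0725). EIF2S2P4, a pseudogene, had a log2 difference of 1.48, but summed with its parent EIF2S2 the log2 ratio was 0.0055. NBPF20, of a family of near-identical copies, had 1.19. Such genes can trade estimated counts with their copies and are uncertain.

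THAP9-AS1 stood at 41.9, 40.01 and 45.98 CPM with the nuclease and 63.7, 68.01 and 68.1 CPM with YTHDF2 (log2 0.65, SE 0.0689, adjusted p = 6.57e-04). It is antisense to its neighbour, and, with no strand setting known for the counting, reads of both cannot be told apart. CEP295, a centriole protein, stood at 26.2, 24.5 and 27.8 CPM and 37.9, 41.4 and 41.5 CPM (log2 0.63, adjusted p = 0.0029). NKTR, a cyclophilin with an SR domain, stood at 47.2, 41.8 and 48.99 CPM and 63.3, 71.3 and 70.9 CPM (log2 0.58, adjusted p = 0.00325).

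On the lower side EIF3CL stood at 62.3, 66.9 and 69.6 CPM with the nuclease and 34.9, 46.2 and 39.1 CPM with YTHDF2 (log2 -0.72, SE 0.0887, adjusted p = 0.00227). It is a near-identical copy of the translation initiation gene EIF3C, which takes most of the pair's counts, and the sum of both gave a log2 ratio of -0.12. GPC3, a cell-surface proteoglycan, stood at 112, 107 and 103 CPM and 86.1, 77.7 and 81.2 CPM (log2 -0.40, SE 0.0591, adjusted p = 0.00851). GALK1, the galactokinase, was -0.53, the nucleoside kinase NME3 -0.71, the secreted factor SERPINF1 -0.44, the dynein chain WDR34 -0.45, PAQR4 -0.45 and BTBD2 -0.39, with adjusted p from 0.00887 to 0.0104. TLE2, a transcriptional corepressor, was -0.91, and the proteoglycan CSPG4 -0.80 (adjusted p = 0.0224 and 0.0373). By gene type, transcribed unprocessed pseudogenes had 15 of 235 called higher (6.38%) and 0 lower, beside 2.23% and 2.02% of all genes. The median of this class was 0.21. It was singled out after its values were seen, and such genes can trade estimated counts with their copies.

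GC content and transcript length moved with the calls. Genes called higher had a median GC content of 42.3% and a median length of 2653 bases, and genes called lower 59.3% and 1318 bases, beside 48.8% and 2088 bases over all genes. With genes split into 10 bins by GC content, 5.57% in the lowest bin were called higher and 0.0655% lower, and in the highest bin 0.197% higher and 7.47% lower. The median difference ran from 0.10 to -0.17 across the bins. In the 1 of 10 bins with the shortest transcripts the median was -0.09 here and 0.19 with the NT guide. By library, the rank correlation across genes of deviation with GC content was 0.09, 0.61 and 0.21 in nuclease-SMARCA4 replicates 1, 2 and 3, and -0.37, -0.42 and -0.27 in YTHDF2-SMARCA4. Nuclease-SMARCA4 replicate 2 had the steepest of these GC trends. With length, the rank correlation was 0.05, -0.43 and -0.16 in nuclease-SMARCA4 and 0.5, 0.2 and -0.08 in YTHDF2-SMARCA4. Whether these trends bear on the calls lost without single libraries was not tested.

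When a smooth trend with GC content and length was removed from each library, 504 genes were called, 244 higher and 260 lower, of which 301 were among the 660. Almost all of the 660 kept their direction (659). Calls that held included YTHDF2 (4.58), ARRDC3 (0.89), MAT2A (0.71), HSPA1B (0.77), CLK1 (0.53), PNN (0.42), PCK2 (-0.47), FOS (0.97) and HMOX1 (0.52). Calls that did not hold included GAPDH (-0.22, adjusted p = 0.0642), RPS15 (-0.11, adjusted p = 0.113), SON (0.15, adjusted p = 0.0613) and UPF2 (0.18, adjusted p = 0.147). Whether the trends arose in the cells or in library preparation was not tested.

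**Figure D5:**
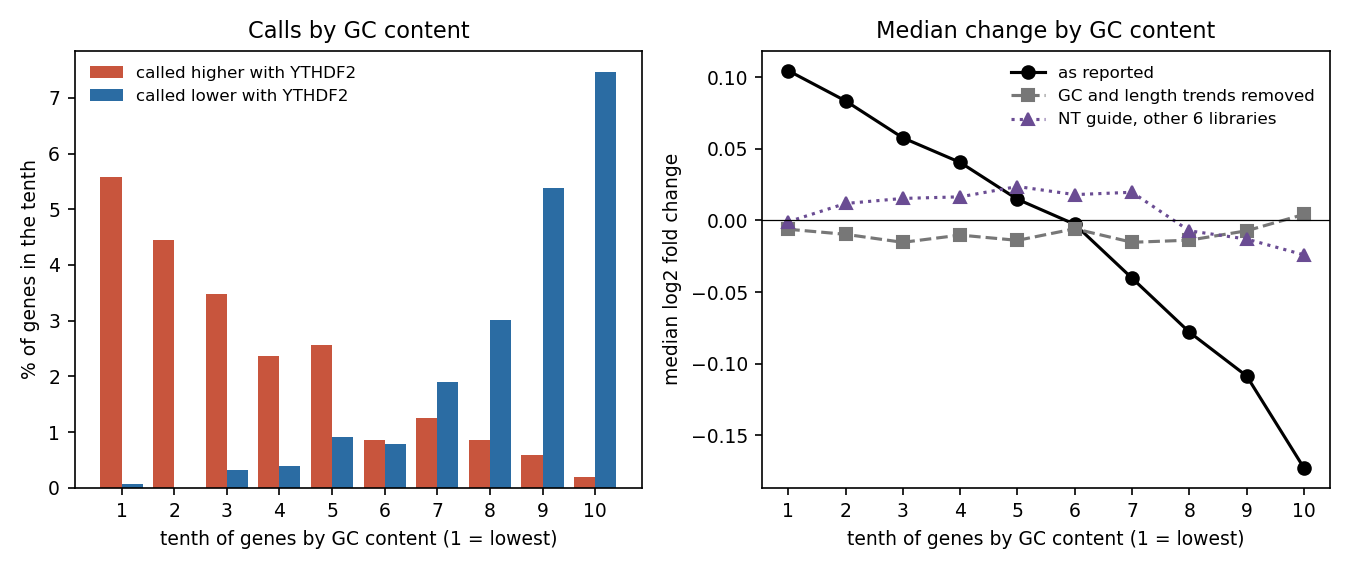
Left, the share of genes called higher or lower in each of 10 bins of GC content; right, the median log2 fold change per bin as reported, with GC and length trends removed, and for the NT guide in its own 6 libraries. The median falls from 0.10 in the lowest bin to -0.17 in the highest and is nearly flat in the other 2 lines.

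The same pair of effectors with the NT guide, in 6 libraries that share none with these, gave 6 calls of 15462 genes (0.0388%), with a biological coefficient of variation of 14.5% against 6.8% here. YTHDF2 was called with both guides (4.55 here and 4.65 with NT), and no other gene was. Of the 657 called genes that were measured with both guides, 273 (41.6%) had the same direction with NT, beside 47.5% of all 15172 genes. By direction, these were 184 of 344 genes called higher and 89 of 313 called lower. The median NT difference was 0.023 for genes called higher and 0.080 for genes called lower. HSPA1B (0.72 with NT), LUC7L3 (0.34), ARRDC3 (0.43) and FOS (0.51) had the same sign there without being called. MAT2A (-0.053), CLK1 (0.07) and SNHG1 (0.04) were near 0. A test of the difference between the guides over all 12 libraries called 0 of 16297 genes by edgeR, with 1802 at an unadjusted p below 0.05, so no gene was shown to differ between the effectors with one guide more than with the other.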

How the data were processed

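The authors' deposited tables held kallisto's estimated counts and TPM for 200403 targets per library, per the file headers; the submitters' processing notes name kallisto, sleuth and hg38. The versions and strand setting are not given in the sources used here. Deposited estimated counts were summed per gene ID of the target names (58288 IDs), rounded and tested with edgeR 4.0.16 in R 4.3.3 (filterByExpr, TMM, quasi-likelihood, the 6 libraries alone, no block). Deposited TPM entered only the length-scaled alternative. Per-library levels are CPM scaled by TMM. The common biological coefficient of variation was 6.8%, and 4 residual degrees of freedom remained. Called means a Benjamini-Hochberg adjusted p below 0.05 over the 15542 genes tested. The same fit was also run on counts simulated from the means and spread of these libraries. It recovered 50% of genes changed 1.25-fold and 88% of those changed 1.5-fold. Only genes above a floor of mean level were changed, so recovery among genes of a few CPM was not measured. Of the 182 calls on the simulated counts, 13 fell on genes left unchanged. Genes were simulated independently, without the GC and length trends of the libraries, so these 13 do not measure the error in the real data.

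Alternatives were other size factors and filters, all 12 libraries, a replicate block, length-scaled TPM, removal of GC and length trends, DESeq2 1.42.0, limma-voom (limma 3.58.1) and each library left out. GC content and length came from GENCODE 29 transcripts, matching 98.6% of targets. Gene models, summaries and figures used Python 3.11.15, pandas 2.3.3 and scipy 1.17.1. Near-identical genes trade estimated counts, since kallisto shares reads among targets.

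The 41 gene lists and the tests were chosen with earlier results of these data known. Genes were named by rule: construct genes, SMARCA4 and SMARCA2; the 10 smallest p-values and, at or above 1 CPM without overlap, the 15 largest changes in each direction; and per list the 3 smallest p-values and every called member where at most 6 were called. Named outside it, after their values were seen, were DDX17, PRPF4B and PRRC2C (called without each library), copies of named genes, and CHORDC1, CLK2, CLK3, CLK4, CNOT1, HSP90AA1, HSPA8, HSPH1, METTL16, MYC, NEFM, SRRM2, SRSF1, SRSF3, SRSF6, SRSF7, TRA2B and TXNIP. Some genes that the rule would name are not reported here.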

Additional observations from a re-analysis of the deposited data

How the results depend on the processing

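Beside the 660 calls (346 higher, 314 lower), 1537 genes were called without a filter on low counts (740 and 797), 1 with all 12 libraries in the fit (1 and 0) and 5 with length-scaled TPM counts (5 and 0), where the coefficient of variation was 12.2%. DESeq2 called 921 (431 and 490), and the replicate block with GC and length trends removed called 450 (225 and 225). Leaving out 1 library gave 23 to 816 calls, 19 to 414 higher and 4 to 402 lower. The reported fit did not pair libraries by replicate number. Same-numbered libraries had correlations of deviations of 0.05, -0.09 and -0.03, which cannot show whether they were prepared together. The replicate block called 744, of which 603 were among the 660, and gave 4.55 for YTHDF2 and -0.07 for SMARCA4. Both of these kept their side of the threshold under all 16 alternatives.

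Of 2560 values of 162 other named genes under the alternatives, 1788 kept direction and call, 721 lost the call, 45 gained it and 6 changed sign; none of the genes that changed sign was called. HBA1 was -0.063 with length-scaled TPM counts and ran from -0.39 to 0.48 as single libraries were left out, and SMG6 from -0.0083 to 0.18. UBXN1 was 0.0092 with the trends removed and 0.0105 with the replicate block as well. The causes were not tested. Of 624 list medians, 66 moved by more than the spread between libraries. Depth limits genes of a few CPM, and intervals here cover the spread of 3 libraries a group only.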
